A study of Mus musculus with 3 samples.

Results

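The miR-99, miR-100 and miR-125 families were followed in cultured mouse ovaries through 8 mature miRNAs, out of the 627 mature miRNA IDs in the deposited count table. The members were taken by name: mmu-miR-99a-5p, mmu-miR-99a-3p, mmu-miR-99b-5p, mmu-miR-99b-3p, mmu-miR-100-5p, mmu-miR-125a-5p, mmu-miR-125a-3p and mmu-miR-125b-5p. All 8 were found, and all 8 passed the minimum on low values used below. The ovaries came from newborn CD1 mice and were cultured through the days of primordial follicle assembly with 0, 10, or 100 μM DEHP, di(2-ethylhexyl) phthalate, a plasticizer. Each concentration has 1 small RNA library, made from ovaries pooled from many animals, and the ovaries at 0 μM received the vehicle, DMSO. The study asked how DEHP exposure alters the miRNA profile of the newborn ovary.

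A miRNA is cut from a hairpin precursor, whose arms give the 5p and the 3p product, and usually one arm accumulates while the other is degraded. The seed, bases 2 to 8 of the mature miRNA, pairs with target mRNAs, so miRNAs with a common seed can share many targets. The miR-99/100 and miR-125 families lie with a let-7 gene between them in paralogous clusters of the mouse genome. miR-99 and miR-100 are known for repressing mTOR and the IGF1 receptor, miR-125 for repressing Lin28 and pro-apoptotic genes, and let-7 for its rise as cells differentiate.

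The mature sequences, from RefSeq on GRCm38.p6, are printed with the seed in capitals because they show which members share a seed and which can be mistaken for each other in read counting. The first 3 share the seed ACCCGUA, the next pair the seed AAGCUCG, and miR-125a-5p and miR-125b-5p share CCCUGAG with miR-351-5p, which is no member by name. The last pair are the 3p arms by which the hairpins of miR-125b-5p can be told apart.
mmu-miR-99a-5p: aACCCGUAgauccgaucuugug
mmu-miR-100-5p: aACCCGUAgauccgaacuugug
mmu-miR-99b-5p: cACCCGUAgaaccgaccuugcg
mmu-miR-99a-3p: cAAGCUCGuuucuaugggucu
mmu-miR-99b-3p: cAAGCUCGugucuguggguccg
mmu-miR-125a-5p: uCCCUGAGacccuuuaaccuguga
mmu-miR-125b-5p: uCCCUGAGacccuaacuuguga
mmu-miR-351-5p: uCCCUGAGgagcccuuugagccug
mmu-miR-125a-3p: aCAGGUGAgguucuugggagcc
mmu-miR-125b-1-3p: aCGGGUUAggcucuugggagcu
mmu-miR-125b-2-3p: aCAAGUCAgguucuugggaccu

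Counted from the 5′ end, miR-99a-5p and miR-100-5p differed at 1 of 22 bases, U16A. miR-99a-5p and miR-99b-5p differed at 4 of 22 bases, A1C, U11A, U16C and U21C, all outside the seed. miR-125a-5p and miR-125b-5p share their first 13 bases. How many mismatches the read counting allowed is not given in the sources used here, so the split of reads between miR-99a-5p and miR-100-5p is uncertain. The GC content of the mature sequence was 50% for miR-99a-5p and for miR-100-5p, and 63.6% for miR-99b-5p.

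The hairpins lie in 3 clusters, all on the plus strand of GRCm38 (GENCODE M21). On chromosome 16, Mir99a (chr16:77598936-77599000), Mirlet7c-1 (chr16:77599657-77599750) and Mir125b-2 (chr16:77646273-77646343) lie in introns of Mir99ahg, a non-coding host gene, over 47408 bases. On chromosome 17, Mir99b (chr17:17830188-17830257) and Mirlet7e (chr17:17830352-17830444) lie in introns of Spaca6, a protein-coding gene of sperm-egg fusion, and Mir125a (chr17:17830812-17830879) overlaps an exon of Spaca6. That cluster spans 692 bases. On chromosome 9, Mir100 (chr9:41531425-41531504), Mirlet7a-2 (chr9:41536716-41536811) and Mir125b-1 (chr9:41581926-41582002) lie in introns of the non-coding gene 3110039I08Rik over 50578 bases. The mature sequence of miR-125b-5p was found in 2 hairpins, Mir125b-1 and Mir125b-2, so its counts cannot be assigned to chromosome 9 or 16. The other 7 members were each found in 1 hairpin.

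The 3 libraries held 5064602 to 5952274 counts of mature miRNAs in the 1 row kept per ID. Shares of all counts and ratios by total counts below rest on these totals. All rows of the table held 6916300, 6950297 and 6850706 counts at 0, 10 and 100 μM, where a read may be counted in several rows. In the 0 and 10 μM libraries 45.4% and 45.6% of the counts fell on the 10 most abundant miRNAs, and in the 100 μM library 70.5%, which makes every ratio with the 100 μM library depend on the scaling. Levels below are counts divided by DESeq2 size factors (normalized counts), and a log2 ratio was taken after adding 0.5. A read covers a whole mature miRNA, so counts were not divided by length. Intervals are exact 95% intervals (Poisson for a level, Clopper-Pearson for a share or for the ratio of 2 counts). They cover counting error only, and may be too narrow even for it, because reads counted without molecular identifiers may be copies of 1 molecule. No concentration was replicated, so no test was made and no p-value is given. The ratios compare these libraries, in which the concentration and any difference in culture or library preparation cannot be told apart. In ovaries sequenced as bulk tissue, fewer cells of a type and less RNA per cell cannot be told apart either. The gonadal marker miR-202, both arms summed, was present in every library, at 31188, 40382 and 19964 normalized counts. Its arms differed at 100 against 0 μM, with a log2 ratio of -0.74 for miR-202-5p and of 0.78 for miR-202-3p. As a share of all counts both arms were lower at 100 μM.

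Together the 8 members made up 6.83% of all counts (6.81% to 6.85%) in the untreated library. Their share was 7.68% (7.65% to 7.70%) with 10 μM DEHP and 4.05% (4.04% to 4.07%) with 100 μM DEHP. At 0 μM the order of levels was miR-99a-5p, miR-125b-5p, miR-99b-5p, miR-100-5p, miR-125a-5p, miR-99b-3p, miR-125a-3p and miR-99a-3p. The intervals of the last pair overlapped, and those of all other neighbours did not. The order at 10 μM was the same. In the 100 μM library miR-99b-5p and miR-100-5p stood first and second, ahead of miR-99a-5p and miR-125b-5p, and the other 4 members kept their places.

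**Figure D1:**
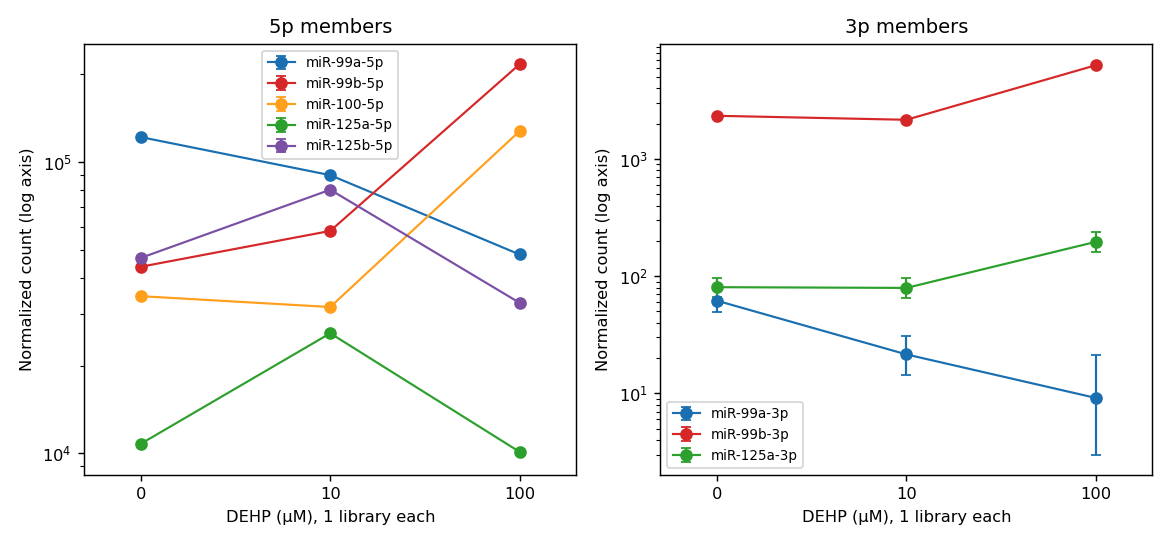
Normalized counts (log axis) of the 5 members from 5p arms (left) and the 3 from 3p arms (right) at 0, 10 and 100 μM DEHP, 1 library each, with exact Poisson 95% intervals that cover counting error only. miR-99a-5p went from 121849 to 48163 normalized counts and miR-99b-5p from 43709 to 216822 between 0 and 100 μM, while miR-125a-5p and miR-125b-5p were highest at 10 μM.

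Among the miR-99/100 seed family, miR-99a-5p, the most abundant of the members in the untreated ovary, had 167924 counts at 0 μM, 121576 at 10 μM and 26289 at 100 μM. These correspond to 121849, 90194 and 48163 normalized counts. The level was 74.0% of the untreated one at 10 μM and 39.5% of it at 100 μM, a log2 ratio of -0.43 (-0.44 to -0.42) and of -1.34 (-1.36 to -1.32). It was lowest in the 100 μM library under all 5 scalings tried.

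miR-99b-5p, its seed mate from chromosome 17, went the other way. It had 60237, 78214 and 118349 counts at 0, 10 and 100 μM, or 43709, 58025 and 216822 normalized counts. The 100 μM library stood 4.96-fold above the untreated one, a log2 ratio of 2.31 (2.30 to 2.32), and the 10 μM library 1.33-fold above it, 0.41 (0.39 to 0.42). Without scaling to the typical miRNA, as a share of all counts, the log2 ratio at 100 μM was 0.79.

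miR-100-5p, which differs from miR-99a-5p at 1 base, was near its untreated level at 10 μM and high at 100 μM. Its counts were 47711, 42834 and 69726, or 34620, 31777 and 127742 normalized counts. The log2 ratio to the untreated library was -0.12 (-0.14 to -0.10) at 10 μM and 1.88 (1.87 to 1.90) at 100 μM. By total counts the ratio at 100 μM was 0.37, so its direction held under all 5 scalings as well.

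Within a library, shares of a seed family do not depend on the scaling. Among the counts with the miR-99/100 seed, miR-99a-5p held 60.9% at 0 μM (60.7% to 61.1%), 50.1% with 10 μM DEHP (49.9% to 50.3%), and 12.3% with 100 μM DEHP (12.1% to 12.4%). The share of miR-99b-5p was 21.8%, 32.2% and 55.2%. miR-100-5p took 17.3%, 17.7% and 32.5%. The predominant carrier of this seed was thus miR-99a-5p at 0 and 10 μM and miR-99b-5p at 100 μM. There were 3.52 reads of miR-99a-5p for each read of miR-100-5p at 0 μM (3.48 to 3.56), 2.84 with 10 μM DEHP (2.81 to 2.87), and 0.377 with 100 μM DEHP (0.372 to 0.382). miR-99b-5p and miR-100-5p stayed closer to each other, with 1.26, 1.83 and 1.70 reads of miR-99b-5p per read of miR-100-5p.

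The 3 miRNAs of this seed summed to 275872, 242624 and 214364 counts. The normalized sum was 200179, 179995 and 392727, and its log2 ratio at 100 μM was 0.97 (0.96 to 0.98), but -0.54 by total counts, so the direction of the summed seed depended on the scaling. As a share of all counts the seed went from 5.25% to 4.79% and 3.60%.

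**Figure D2:**
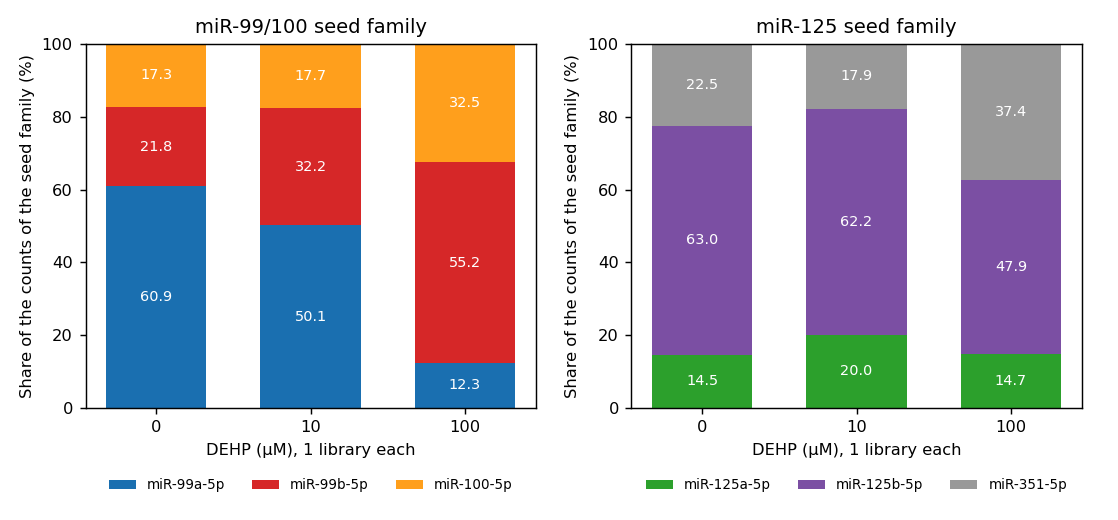
Share of each miRNA in the counts of its seed family (%, stacked to 100) at 0, 10 and 100 μM DEHP, 1 library each, for the miR-99/100 seed (left) and the miR-125 seed (right). miR-99a-5p held 60.9% of its family at 0 μM and 12.3% at 100 μM, where miR-99b-5p held 55.2%, and miR-125b-5p stayed the largest of the 3 miRNAs with its seed.

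The miR-125 family had another profile, with its highest level in the 10 μM library. miR-125a-5p had 14855, 34803 and 5515 counts at 0, 10 and 100 μM, or 10779, 25819 and 10104 normalized counts. At 10 μM it was 2.40-fold above the untreated library, a log2 ratio of 1.26 (1.23 to 1.29), which ranked 3 from the top among the 587 miRNAs compared. At 100 μM it was near its untreated level, at -0.09 (-0.14 to -0.05), and -1.61 by total counts.

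miR-125b-5p, the most abundant carrier of the CCCUGAG seed, had 64621, 108339 and 17937 counts. Its normalized counts were 46890, 80373 and 32862. The log2 ratio to the untreated library was 0.78 (0.76 to 0.79) at 10 μM, rank 24 from the top of 587, and -0.51 (-0.54 to -0.49) at 100 μM. By total counts the ratio at 100 μM was -2.03, past the log2 ratio of 2 used below, and without the 10 most abundant miRNAs in the totals -1.28. miR-125b-5p fills 2 rows of the table that do not name their precursor, and the row with the higher total was used. The other row held 62701, 104875 and 16465 counts, with the same order of the libraries.

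Between the 10 and 100 μM libraries both were lower at 100 μM, by a log2 ratio of -1.35 (-1.39 to -1.31) for miR-125a-5p and of -1.29 (-1.31 to -1.27) for miR-125b-5p. By total counts these were -2.89 and -2.83, and without the 10 most abundant miRNAs -2.16 and -2.10, so both lay beyond 2 under these scalings. Reads of miR-125b-5p outnumbered those of miR-125a-5p 4.35 to 1 at 0 μM, 3.11 to 1 at 10 μM and 3.25 to 1 at 100 μM, so this pair kept a narrower ratio than miR-99a-5p and miR-99b-5p, which went from 2.79 to 1.55 and 0.222. miR-351-5p, an X-linked miRNA with the same seed, had 23081, 31149 and 13986 counts (16748, 23109 and 25623 normalized). Its log2 ratio was 0.46 at 10 μM and 0.61 at 100 μM, the latter -0.90 by total counts and -0.15 by total counts without the 10 most abundant miRNAs. Its share of the seed was 22.5%, 17.9% and 37.4%, against 63.0%, 62.2% and 47.9% for miR-125b-5p and 14.5%, 20.0% and 14.7% for miR-125a-5p.

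The 3p members were rarer than the 5p arms of their hairpins in every library. miR-99a-3p had 85 counts at 0 μM, 29 at 10 μM and 5 at 100 μM, or 61.7, 21.5 and 9.16 normalized counts. Its log2 ratio was -1.50 (-2.18 to -0.90) at 10 μM and -2.69 (-4.41 to -1.47) at 100 μM. The interval at 100 μM held decreases both smaller and larger than the log2 ratio of 2 used below. The direction was that of miR-99a-5p at both concentrations.

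miR-99b-3p had 3210, 2903 and 3428 counts, or 2329, 2154 and 6280 normalized counts. The log2 ratio at 100 μM was 1.43 (1.36 to 1.50), and -0.09 by total counts. At 10 μM it was -0.11 (-0.19 to -0.04), whereas the 5p arm stood above the untreated library. miR-125a-3p had 111, 107 and 107 counts, or 80.5, 79.4 and 196 normalized counts. Its log2 ratio was -0.02 (-0.42 to 0.38) at 10 μM and 1.28 (0.89 to 1.68) at 100 μM, the latter -0.23 by total counts.

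The ratio of the arms within a library needs no scaling. The 5p to 3p ratio of Mir99a was 1976 at 0 μM (1598 to 2473), 4192 with 10 μM DEHP (2919 to 6260), and 5258 with 100 μM DEHP (2253 to 16194), and the interval at 100 μM overlapped those of both other libraries. For Mir99b it was 18.8 (18.1 to 19.4), 26.9 (26.0 to 28.0) and 34.5 (33.4 to 35.7), with no overlap between the libraries. Mir125a had a ratio of 134 (111 to 163), 325 (269 to 397) and 51.5 (42.6 to 63.0), highest at 10 μM, where its 5p arm was high and its 3p arm was not. The 3p arm of Mir100, miR-100-3p, had 14, 10 and 1 counts, below the minimum on low values, and its 5p to 3p ratio was 3408 (2031 to 6234) at 0 μM and 4283 (2329 to 8933) at 10 μM. At 100 μM it was 69726 (12514 to 2754070), resting on 1 count of the 3p arm. Mir99b had the smallest ratio of these 4 hairpins in each library.

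Ordered by cluster, the products that come from 1 hairpin alone were compared between loci. From chromosome 16 the log2 ratios at 100 against 0 μM were -1.34 for miR-99a-5p, -2.69 for miR-99a-3p, -0.57 (-1.26 to 0.06) for let-7c-1-3p and -0.09 (-0.22 to 0.04) for miR-125b-2-3p. None of these 4 was above its untreated level at 100 μM. At 10 against 0 μM let-7c-1-3p was above it, at 0.66 (0.29 to 1.05). There miR-99a-5p, miR-99a-3p and miR-125b-2-3p were below it, at -0.43, -1.50 and -0.60. From chromosome 9 the log2 ratios at 100 against 0 μM were 1.88 for miR-100-5p and 1.48 (1.37 to 1.60) for miR-125b-1-3p, the latter -0.03 by total counts. miR-100-3p, also from chromosome 9, was at -2.19 (-7.87 to 0.25), with 14 counts at 0 μM and 1 at 100 μM. From chromosome 17 they were 2.31 for miR-99b-5p, 1.43 for miR-99b-3p, 0.30 (0.27 to 0.34) for let-7e-5p, 0.74 (0.39 to 1.10) for let-7e-3p, -0.09 for miR-125a-5p and 1.28 for miR-125a-3p. The products of 1 cluster thus spanned from -0.09 to 2.31 on chromosome 17, where the hairpins lie within 692 bases.

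miR-125b-1-3p had 1139, 1144 and 1261 counts (826, 849 and 2310 normalized), and miR-125b-2-3p had 1737, 1118 and 646 (1260, 829 and 1184 normalized). Reads of the first per read of the second were 0.656 at 0 μM (0.608 to 0.707), 1.02 with 10 μM DEHP (0.941 to 1.11), and 1.95 with 100 μM DEHP (1.77 to 2.15). Thus the 3p arm from the chromosome 9 hairpin was the rarer of the pair at 0 μM and the more abundant at 100 μM, in the same direction as miR-100-5p against miR-99a-5p from the same loci. Which of these hairpins gave the miR-125b-5p reads is not resolved by the counts.

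**Figure D3:**
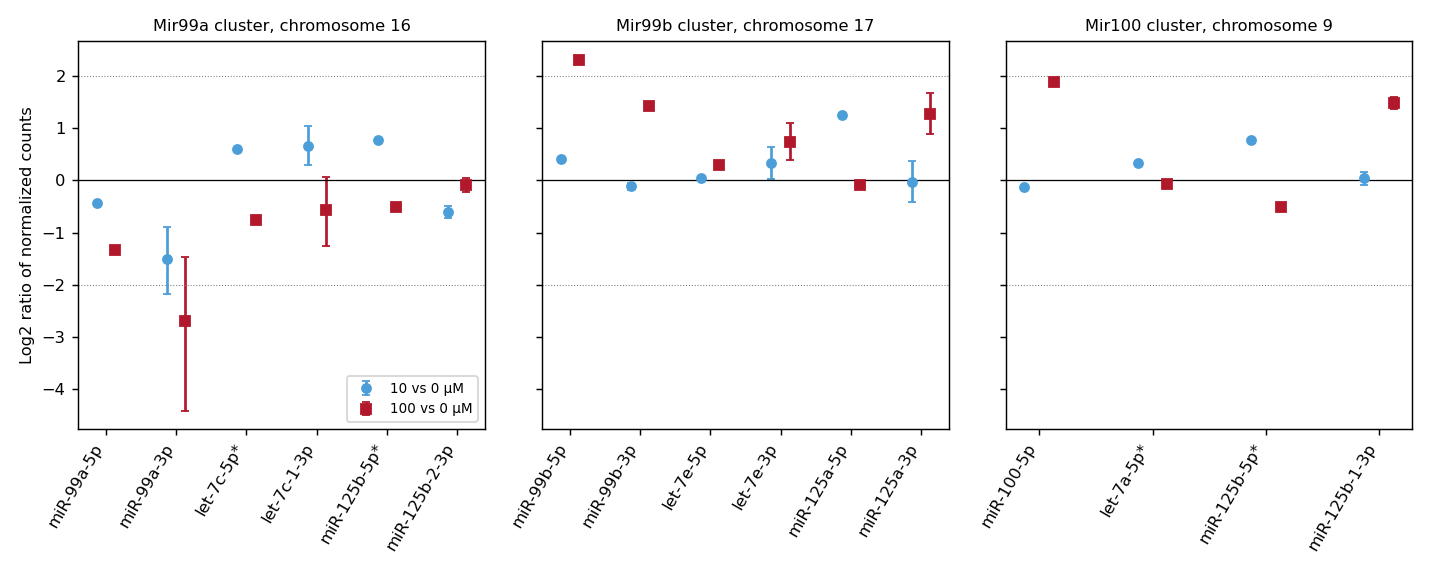
Log2 ratios of normalized counts at 10 against 0 μM (circles) and 100 against 0 μM (squares) for the products of the 3 clusters in genomic order, without miR-100-3p, which was below the minimum on low values, with exact 95% intervals that cover counting error only. Dotted lines mark a log2 ratio of 2 in either direction, and asterisks mark mature miRNAs that come from more than 1 hairpin. miR-99b-5p lay at 2.31 and miR-99a-3p at -2.69 at 100 μM. By total counts of the rows kept, miR-99b-3p, miR-125a-3p, let-7e-5p, let-7e-3p and miR-125b-1-3p turned negative at 100 μM.

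let-7 miRNAs of the clusters were described whatever their values. let-7c-5p had 85995, 127819 and 20137 counts, a log2 ratio of 0.60 (0.59 to 0.62) at 10 μM and of -0.76 (-0.78 to -0.74) at 100 μM, the latter -2.27 by total counts. let-7a-5p had 51973, 63776 and 19754 counts, with 0.33 at 10 μM and -0.06 at 100 μM. The latter was 0.02 under TMM scaling, -0.82 by total counts without the 10 most abundant miRNAs and -1.58 by total counts, so its direction depended on the scaling. let-7e-5p had 19489, 19631 and 9530 counts, and its log2 ratio of 0.30 at 100 μM turned to -1.21 by total counts. let-7c-5p was found in hairpins on chromosomes 16 and 15, and let-7a-5p in those on chromosomes 9 and 13, so both mix loci. let-7c-2-3p, whose sequence was found in hairpins on chromosomes 13 and 15, had 820, 990 and 170 counts. let-7a-2-3p was looked for by name and not found among the 627 IDs, so it has no value here.

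Ratios between members of a cluster were taken within each library. Reads of miR-99b-5p per read of miR-125a-5p were 4.06 at 0 μM (3.98 to 4.13), 2.25 with 10 μM DEHP (2.22 to 2.28), and 21.5 with 100 μM DEHP (20.9 to 22.1), although their hairpins are neighbours on chromosome 17. Against let-7e-5p, the hairpin between them, miR-99b-5p had a ratio of 3.09, 3.98 and 12.4. miR-100-5p against miR-125b-5p gave 0.738, 0.395 and 3.89. miR-99a-5p against miR-125b-5p gave 2.60, 1.12 and 1.47. In each of these 3 pairs of a miR-99/100 with a miR-125 member, the ratio was lowest at 10 μM, where miR-125a-5p and miR-125b-5p were highest. A ratio with miR-125b-5p mixes the hairpins on chromosomes 9 and 16. From 0 to 100 μM the ratio was higher for miR-99b-5p and miR-100-5p and lower for miR-99a-5p. Against its let-7 neighbour, miR-99a-5p had 1.95, 0.951 and 1.31 reads per read of let-7c-5p, and miR-100-5p 0.918, 0.672 and 3.53 per read of let-7a-5p. With both rows of each let-7 miRNA summed, where a read may be counted in both, these were 0.981, 0.478 and 0.656, and 0.460, 0.336 and 1.77. At 0 and 100 μM, whether miR-99a-5p or let-7c-5p was the more abundant thus depended on summing the rows. With the row of lowest total the ratio to let-7c-5p was 1.97, 0.960 and 1.32. At 10 μM let-7c-5p was the more abundant in each case.

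Against the whole profile, few members passed a log2 ratio of 2, the fold-change part of the study's rule. The study also set a cutoff on the false discovery rate, which was not computed here. At 10 against 0 μM, 0 of 8 members were beyond 2 in either direction, while of the 587 miRNAs compared 0% were higher and 0.681% lower. At 100 against 0 μM, 1 member was higher, miR-99b-5p, and 1 lower, miR-99a-3p, beside 10.4% and 9.37% of all miRNAs. At 100 against 10 μM, 1 member was higher, miR-100-5p at 2.01 (1.99 to 2.02), so on the threshold, and 0 were lower, beside 12.3% and 8.69%. With 8 members, counts of 0 or 1 are close to these background shares.

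Beyond a log2 ratio of 1, at 10 against 0 μM 1 member was higher (miR-125a-5p) and 1 lower (miR-99a-3p), beside 1.53% and 5.11% of all miRNAs. At 100 against 0 μM 4 were higher (miR-99b-5p, miR-100-5p, miR-99b-3p and miR-125a-3p) and 2 lower (miR-99a-5p and miR-99a-3p), beside 26.7% and 25.7%. At 100 against 10 μM, 4 were higher and 3 lower, beside 29.5% and 24.7%. The median log2 ratio of the members was -0.07 at 10 against 0 μM and 0.59 at 100 against 0 μM, against 0.02 and -0.01 over all miRNAs. The members ranged from -1.50 to 1.26 and from -2.69 to 2.31, so a single value describes the families poorly.

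**Figure D4:**
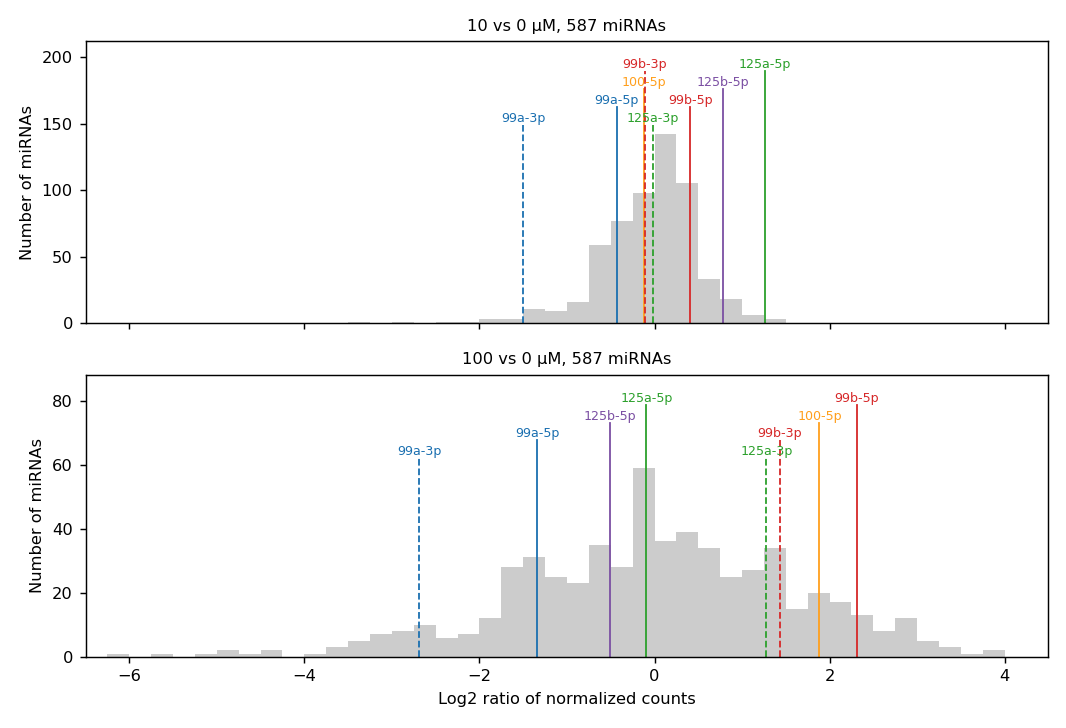
Number of miRNAs by log2 ratio of normalized counts at 10 against 0 μM (top) and 100 against 0 μM (bottom) for the 587 miRNAs compared, with the 8 members as vertical lines (solid for 5p, dashed for 3p arms). miR-125a-5p, at 1.26, ranked 3 from the top at 10 μM, and at 100 μM the members were spread from -2.69 to 2.31. By total counts of the rows kept, miR-99b-3p and miR-125a-3p would lie below 0 at 100 μM.

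At 100 against 0 μM, the median log2 ratio over the whole table shifted by -1.52 when counts were divided by library totals, and by -0.77 when those totals left out the 10 most abundant miRNAs. Such a shift is shared by all members. Under the 5 scalings the log2 ratio at 100 against 0 μM ran from 0.79 to 2.39 for miR-99b-5p, from 0.37 to 1.96 for miR-100-5p and from -2.86 to -1.26 for miR-99a-5p, which lay beyond 2 by total counts and without the 10 most abundant miRNAs. miR-99b-3p ran from -0.09 to 1.51 and miR-125a-3p from -0.23 to 1.36, so their direction depended on the scaling. The totals are those of the rows kept. Over all rows of the table the totals were 6916300 at 0 μM and 6850706 at 100 μM. By those totals miR-99b-3p, with 3210 and 3428 counts, would lie above its untreated level at 100 μM.

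**Figure D5:**
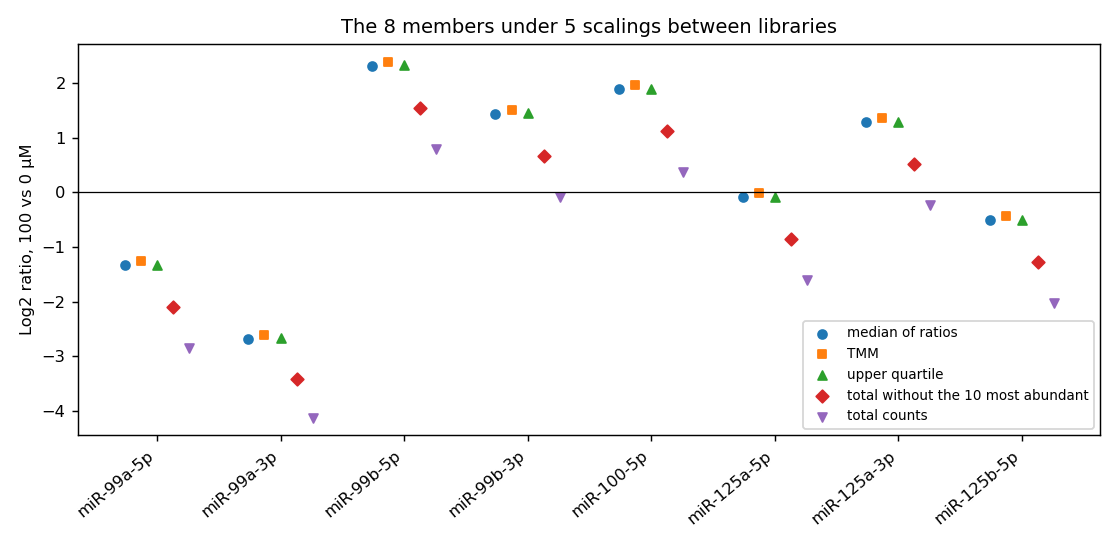
Log2 ratio at 100 against 0 μM of the 8 members under 5 scalings between the libraries. miR-99b-5p and miR-100-5p lay above 0 and miR-99a-5p, miR-99a-3p, miR-125a-5p and miR-125b-5p below 0 under all 5. miR-99b-3p and miR-125a-3p crossed 0 by total counts of the rows kept.

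For each 5p member the 2 miRNAs with the most similar pair of log2 ratios (10 and 100 against 0 μM) were looked up among 374 miRNAs with a mean of at least 100 normalized counts, over 3 libraries that all these miRNAs share. They were miR-210-5p and miR-872-5p for miR-99a-5p, miR-470-5p and miR-10a-5p for miR-99b-5p, and miR-361-3p and let-7f-5p for miR-100-5p. miR-6240 and miR-125b-5p were nearest to miR-125a-5p, at distances of 0.11 and 0.64, and miR-92a-3p and let-7c-5p nearest to miR-125b-5p. The lookup names 2 miRNAs for any member, however distant, and let-7c-5p lay at a distance of 0.30 from miR-125b-5p. let-7f-5p, at 0.03 and 1.89, stood apart from the let-7 miRNAs of the clusters.

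The related miR-10 family, whose mature sequences carry the ACCC tetramer of miR-99 and miR-100 at the start of another seed, was also high at 100 μM. miR-10a-5p had 53922, 63062 and 119210 counts, a log2 ratio of 0.26 at 10 μM and 2.48 at 100 μM. miR-10b-5p had 398751, 462690 and 1250029 counts, with 0.25 and 2.98. By total counts the ratios at 100 μM were 0.96 for miR-10a-5p and 1.47 for miR-10b-5p, still above 0 but no longer beyond 2.

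Marker miRNAs of other cell types differed between the libraries too. The endothelial miR-126a, both arms summed, had 46170, 52252 and 9855 normalized counts at 0, 10 and 100 μM, with its lowest value at 100 μM as for miR-125b-5p. Markers of stroma and smooth muscle (miR-143-3p, miR-145a-5p, miR-199a-5p and miR-214-3p) summed to 299425, 224401 and 949325, and within the list miR-143-3p was highest and miR-145a-5p and miR-214-3p were lowest at 100 μM. miR-199a-5p was highest there in normalized counts, but its counts were 105993 at 0 μM and 81922 at 100 μM. The 4 markers of germ cells from the miR-290 cluster summed to 1498, 1183 and 4522, of which miR-294-3p gave 2184 at 100 μM. As a share of all counts, miR-294-3p was higher at 100 than at 0 μM, and miR-291a-3p, miR-292a-3p and miR-295-3p were lower. The 3 markers of red blood cells summed to 948, 1009 and 835. Most of that sum was miR-486a-5p, at 817, 875 and 733. No marker was at 0 in any library, but miR-144-3p had 16, 3 and 2 counts, at the detection floor with 10 and 100 μM DEHP. Their part in the levels of the members was not tested.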

How the data were processed

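Small RNA libraries of mouse ovaries cultured with 0, 10, or 100 μM DEHP were used, 1 per concentration. The authors trimmed the reads, mapped them with bowtie2 and quantified known miRNAs with miRDeep2, and the deposited values are raw counts for each pair of mature miRNA and precursor. The build is mm10 and DESeq2 is named, per the labels. Tool versions and the mismatch setting are not given in the sources used here.

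From the 961 rows, the row with the highest total was kept for each of 627 IDs, of which 79 fill several rows. Counts were divided by size factors of DESeq2 1.42.0 (1.38, 1.35 and 0.546) in R 4.3.3. Log2 ratios used 0.5 added and a mean normalized count of at least 10, and were counted beyond 2. TMM and upper-quartile factors came from edgeR 4.0.16, and the other steps used Python 3.11.15 and scipy 1.17.1. The table has no miRNA under 10 counts at 0 μM, while the minimum was 2 at 10 μM and 0 at 100 μM. The shares of all miRNAs higher or lower thus leave out any miRNA that was rarer than this at 0 μM. Counts up to 3 were taken as the detection floor. The scripts were tested on simulated counts. No replicate exists, so no test was made.

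The members, lists and tests were chosen with earlier results of these data known. The miRNAs named are the members, the other products of their clusters, seed mates, miR-10a-5p and miR-10b-5p, the 2 most similar miRNAs per 5p member, and marker miRNAs. Alternatives were 4 other scalings, summed rows, the row of lowest total, 1 or 10 normalized counts added, a threshold of 1, and no minimum or one of 100.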

Additional observations from a re-analysis of the deposited data

How the results depend on the processing

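No paired analysis was possible because each concentration has 1 library, and no replicate was left out. For the 8 members, 192 log2 ratios were recomputed under alternatives: 124 stayed within the counting interval, 65 left it with the same sign, and 3 reversed. By total counts, miR-99b-3p was at -0.085 and miR-125a-3p at -0.23 at 100 against 0 μM, and miR-125a-3p at -0.23 at 100 against 10 μM. For the same pairs of libraries, total counts gave let-7e-5p -1.21 and -1.28, let-7e-3p -0.77 and -1.11, miR-125b-1-3p -0.033 and -0.092, miR-351-5p -0.90 and -1.39, and the summed miR-99/100 seed -0.54 and -0.41, and miR-125b-2-3p -1.02 at 100 against 10 μM. Without the 10 most abundant miRNAs in the totals, let-7e-5p was at -0.46 and -0.54, let-7e-3p at -0.018 and -0.39, miR-351-5p at -0.15 and -0.66, and miR-125b-2-3p at -0.29 at 100 against 10 μM. let-7a-5p was at 0.019 at 100 against 0 μM under TMM. These reversals follow from the shift that each scaling gives to every miRNA. The totals are those of the rows kept. By totals over all rows of the table, miR-99b-3p and miR-125b-1-3p would not reverse.

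Members beyond a log2 ratio of 2 numbered 0 higher and 3 lower at 100 against 0 μM by total counts, beside 0.675% and 35.9% of all miRNAs under that scaling. Without the 10 most abundant miRNAs in the totals they were 0 higher and 2 lower, beside 3.90% and 22.0%. At 100 against 10 μM they were 0 higher and 4 lower by total counts, beside 1.35% and 38.1%, and 0 higher and 2 lower without the 10 most abundant, beside 4.07% and 20.2%. Under upper-quartile scaling 0 were higher there, beside 11.9%. With 10 normalized counts added, or a minimum of 100, 0 members were lower at 100 against 0 μM, beside 6.13% and 6.68% of all miRNAs, since miR-99a-3p, the only one, has few counts. Beyond 1, members higher and lower were 1 and 1 at 10 against 0 μM, 4 and 2 at 100 against 0 μM, and 4 and 3 at 100 against 10 μM.

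Summing the rows of an ID counts miR-125b-5p from both rows, which held similar counts. The 2 rows of let-7c-2-3p were identical, at 820, 990 and 170 counts. Whether a read was counted in both rows was not tested, so the summed values of miR-125b-5p may be too high. With summed rows, the share of miR-125b-5p in the seed was 77.0%, 76.4% and 63.8% at 0, 10 and 100 μM, and that of miR-125a-5p 8.99%, 12.5% and 10.2%. The ratio of miR-99a-5p to miR-125b-5p became 1.32, 0.570 and 0.764, and that of miR-100-5p 0.375, 0.201 and 2.03. With the row of lowest total the shares were 62.3%, 61.4% and 45.8% for miR-125b-5p and 14.8%, 20.4% and 15.3% for miR-125a-5p, and the ratios 2.68, 1.16 and 1.60, and 0.761, 0.408 and 4.23. The order of the 3 libraries in each ratio and in the share of miR-125b-5p was the same in all of these. The 5p to 3p ratios could not move under these settings, because each arm in them fills 1 row. miR-99a-3p at 100 μM, with 5 counts, and miR-100-3p are limited by depth.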
